A study of Homo sapiens with 7 samples.

Results

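The core spliceosome genes described here are 56 genes that encode the proteins of the splicing machinery: the Sm ring, the U1, U2, U4/U6 and U5 small nuclear ribonucleoproteins (snRNPs), the splicing helicases and the Prp19 complex. They were taken as a list of current human gene symbols, by a rule that uses no measured value, though with earlier results of these data known, and each was found in the data by its NCBI gene number. All 56 were found among 19570 genes whose numbers could be matched to the RefSeq gene table, with 8322 of the 2108940 probe sets on each array. The study treated HCT116 cells, a human colon carcinoma line, with camptothecin (CPT), which poisons topoisomerase I by holding it in its cut complex with DNA. Total RNA was hybridised to 7 exon and splice junction arrays. The control group holds 2 arrays of cells given 0.1% DMSO, the solvent, for 4 h and 20 h. The CPT groups used here hold arrays at 1, 2 and 4 h (early, n = 3) and at 15 and 20 h (late, n = 2), all at 10 µM. The labels do not say that arrays came from separate cultures, and no treatment and time was repeated, so the p-values below reflect differences among arrays that also differ in time.

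The spliceosome is built anew on each intron. U1 snRNP pairs with the start of the intron, U2 snRNP with its branch site, and the U4/U6.U5 tri-snRNP then joins. Helicases rearrange the RNA pairings, and the Prp19 complex (NTC) stabilises the catalytic core while step II factors help join the exons. CPT stalls transcribing RNA polymerase II at trapped topoisomerase I complexes, and most splicing takes place while the RNA is still being made.

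The deposited values are on a log2 scale. A gene's value was the median of its probe sets with a mean over the 7 arrays above 2.95, and a gene was tested when at least 3 such probe sets were kept. Of the 56 members, 55 were measured, with 15 kept probe sets for SNRPD3 up to 327 for SNRNP200. SF3B5, a small subunit of the SF3B complex, has 1 probe set and was not tested. Its values were 6.90 and 6.70 in DMSO at 4 and 20 h, 7.23, 7.32 and 7.10 in CPT at 1, 2 and 4 h, and 6.97 and 6.86 at 15 and 20 h. CRNKL1, CWC22, PRPF38A and SF3B3, with 679 probe sets, are not listed in the platform annotation and rest on the gene number alone. The annotation gives several others under other symbols, and these were matched by number too. It lists the probe sets of SNRPD2 as SNRPD1, which is also the symbol of another member, so the gene number alone tells the 2 genes apart. U2AF1 has a near-identical copy in the genome, and SNRPE and SNRPG have processed pseudogenes, so the values of these 3 genes may include signal from other transcripts. Such signal was not checked in these or in the other members.

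Median gene values per array lay between 4.26 and 4.40 in the DMSO and early CPT arrays and were 4.59 and 4.55 at 15 and 20 h. Values of all probe sets, dim ones included, correlated at 0.942 to 0.956 among the DMSO and early arrays. They correlated at 0.941 between 15 and 20 h, and at 0.845 to 0.908 between late arrays and the others. The DMSO means of 12 epithelial markers ran from 3.62 to 7.94 with a median of 4.33. EPCAM, KRT8, KRT18 and KRT19 were at 7.94, 7.39, 7.63 and 6.97, while others, such as KRT20 (3.62) and CDH1 (4.28), lay at the level of markers of other cell types. DMSO means ran from 3.07 to 4.47 over 10 fibroblast markers, from 3.23 to 4.27 over 10 endothelial markers and from 3.42 to 10.89 over 10 leukocyte markers. The leukocyte median was 3.91. Only LYZ reached 10.89, and the next highest of that list was CD68 at 4.96. In late CPT 4 of 12 epithelial, 4 of 10 fibroblast, 5 of 10 leukocyte and 9 of 10 endothelial markers were called higher, beside 33.5% of all genes, and 1 epithelial marker (KRT19) was called lower. Their part in the results was not tested. In such bulk samples fewer cells of a type and less RNA per cell cannot be told apart.

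The members did not move as 1 block in late CPT. Against DMSO 19 of the 55 measured genes fell, 5 rose and 31 were not called, where called means an adjusted p under 0.05 in limma with Benjamini-Hochberg adjustment over all 18017 genes tested. The calls came to 34.5% lower and 9.09% higher among members, beside a background of 17.5% lower and 33.5% higher among all genes. The median member difference was -0.25 on the log2 scale, with an interquartile range of -1.13 to 0.20, against a median of 0.34 over all genes. Late and DMSO groups of 2 arrays each that do not overlap were common. Without overlap 25 of 55 members were lower and 14 higher, beside 4296 and 9846 of 18017 genes. A lack of overlap in a single gene is therefore weak evidence. With this filter the genes with the largest decreases were CWC22, SNRPD1 and CDC40, and those with the largest increases were XAB2, SF3B4 and SF3A2. Quantile re-normalization of the arrays gave 18 lower and 9 higher members in place of 19 and 5. Centring each array on its gene median moved the all-gene median from 0.34 to 0.10 and the member median from -0.25 to -0.49, with 23 lower and 3 higher. Sizes depend on the filter: with dim probe sets kept as well the late difference was -1.42 for CWC22, -1.26 for CDC40, -1.16 for SNRPA1, -0.76 for AQR and -1.85 for SF3B1, each still called, and SNRPD1 (-2.44) and SART3 (-1.93) were lowest among the genes given in full.

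Members are well expressed genes, and level moved with the late difference, less so among members than over all genes. The Spearman correlation of DMSO mean and late difference was -0.202 over 55 members and -0.496 over all genes tested. The DMSO mean is itself a part of that difference. In the top tertile of genes by mean value, above 4.80, lay 54 of the 55 members. Of these 18, or 33.3%, were called lower, and 33.7% of the 6006 genes of that level were called lower. Higher calls came to 9.26% of these members and 20.2% of these genes. The median differences were -0.20 and -0.11. The share of lower members was near that of genes in this tertile, and the share of higher members was below it. The difference was not tested. The mean that sets the tertile includes the late arrays, so a late fall can take a gene out and a late rise bring one in. The member outside it was AQR, called lower, with a DMSO mean of 5.07 and late values of 3.81 and 3.58. Genes were not matched on their DMSO level. Longer genes tended to lower late values, with a Spearman correlation of gene length and late difference of -0.415 over 55 members and -0.39 over all genes tested, values that share the same 7 arrays.

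**Figure D1:**
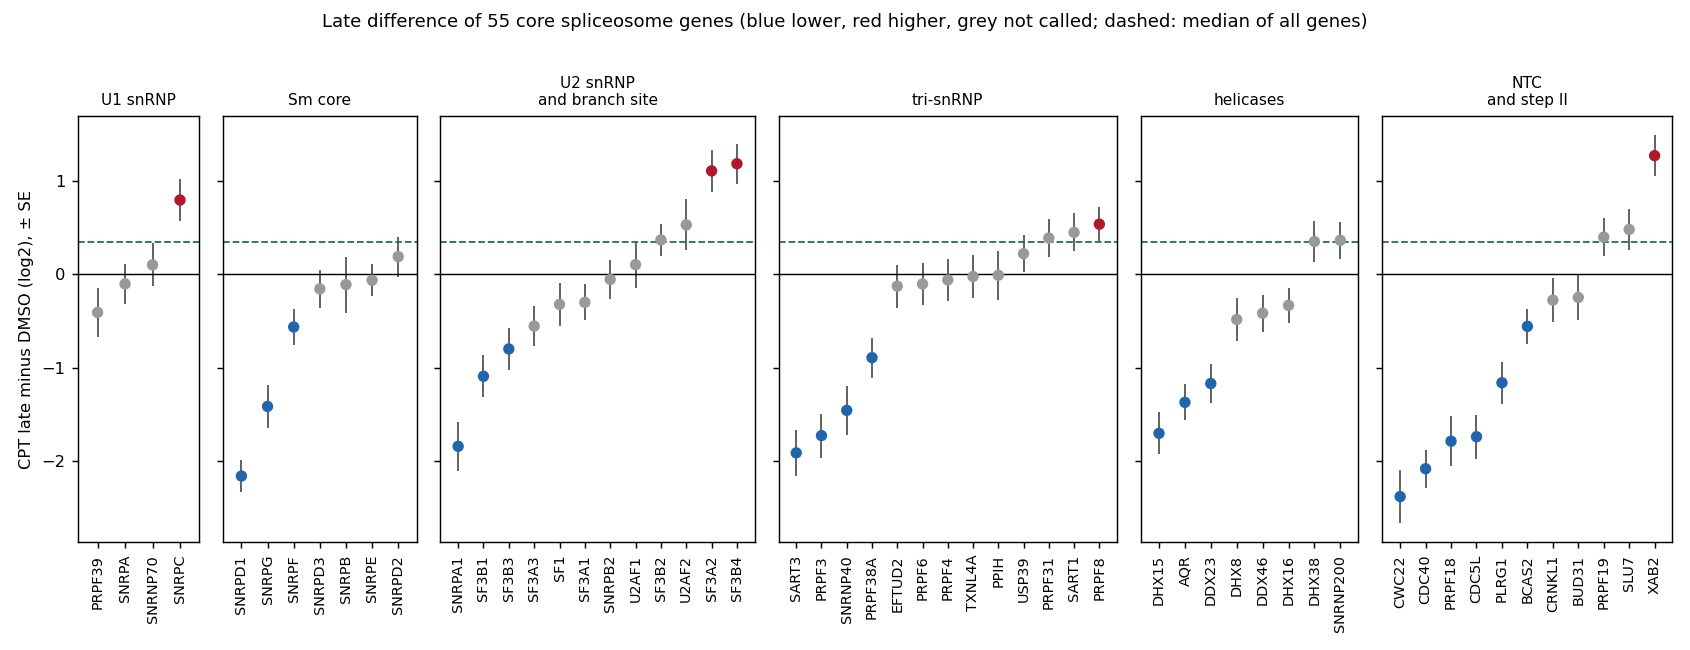
Difference of the late CPT mean (15 and 20 h, n = 2) from the DMSO mean (4 and 20 h, n = 2) for the 55 measured members, on the log2 scale, ordered within 6 subsets, with standard errors from limma as bars and the median of all genes (0.34) as a dashed line. Blue marks members called lower (19), red called higher (5) and grey not called (31); every subset except U1 holds called decreases, from -2.38 for CWC22, and XAB2 has the largest increase at 1.27.

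Promoter sequence was at hand for 51 of the 56 members, as 250 bases before and 50 bases after the first listed start in RefSeq (GRCh38.p14). A pair of members that fell (CDC40, SNRPA1) and a pair that rose (XAB2, SF3B4) are shown because they stand at opposite ends of the late response. They lie at chr6:110180177-110180476 (plus strand), chr15:101295199-101295498 (minus), chr19:7629496-7629795 (minus) and chr1:149927754-149928053 (minus). Each is written 5′ to 3′ along the gene's strand. Capitals mark matches, on either strand, to the CCAAT box (letters CCAAT), the GC box (GGGCGG), the ETS motif (CCGGAAG), the YY1 motif (AAGATGGC) and the TATA motif (TATAAA).
CDC40: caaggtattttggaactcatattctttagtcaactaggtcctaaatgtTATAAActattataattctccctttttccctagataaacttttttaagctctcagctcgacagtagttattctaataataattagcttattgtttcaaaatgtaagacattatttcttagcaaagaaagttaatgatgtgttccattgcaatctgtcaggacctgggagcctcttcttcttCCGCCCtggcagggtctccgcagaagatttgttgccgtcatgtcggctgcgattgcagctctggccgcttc
SNRPA1: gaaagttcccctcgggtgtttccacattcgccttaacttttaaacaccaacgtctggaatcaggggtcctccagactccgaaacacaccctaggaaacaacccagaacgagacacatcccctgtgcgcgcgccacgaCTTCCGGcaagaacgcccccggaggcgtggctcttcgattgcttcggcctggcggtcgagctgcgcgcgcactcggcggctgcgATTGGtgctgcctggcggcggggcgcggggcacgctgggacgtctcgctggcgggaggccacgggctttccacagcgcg
XAB2: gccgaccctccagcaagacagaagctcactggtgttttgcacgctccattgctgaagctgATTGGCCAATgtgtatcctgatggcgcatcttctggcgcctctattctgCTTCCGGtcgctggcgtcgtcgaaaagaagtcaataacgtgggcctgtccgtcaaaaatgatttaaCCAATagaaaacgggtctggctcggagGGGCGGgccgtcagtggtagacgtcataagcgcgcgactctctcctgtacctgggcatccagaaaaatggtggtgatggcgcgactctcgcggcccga
SF3B4: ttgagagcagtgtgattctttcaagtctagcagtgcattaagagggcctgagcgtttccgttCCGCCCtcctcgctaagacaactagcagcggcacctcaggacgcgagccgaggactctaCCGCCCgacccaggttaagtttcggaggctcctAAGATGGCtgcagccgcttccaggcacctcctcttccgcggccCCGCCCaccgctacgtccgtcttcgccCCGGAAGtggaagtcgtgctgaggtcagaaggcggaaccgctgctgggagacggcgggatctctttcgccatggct

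In these windows CDC40 has a GC content of 39.3%, a GC box and a TATA match far from the start. SNRPA1 has 65% GC, an ETS match and a CCAAT box. XAB2 has 56% GC, an ETS match, a GC box and 3 CCAAT boxes, of which a pair on opposite strands lie side by side. SF3B4 has 61.7% GC, 3 GC boxes, an ETS match and a YY1 match. The ETS letters stood in 27 of the 51 member windows, or 52.9%, and in 15.2% of 14072 windows of tested genes. They stood in 5 of 15 members that fell, 4 of 5 that rose and 18 of 30 not called. CCAAT stood in 35.3% of member windows and 36.2% of those of tested genes, with 8 of 15 among members that fell, 2 of 5 among those that rose and 7 of 30 among those not called. GC boxes were in 68.6% of member windows and 61.7% of tested genes' windows, and the E-box (CACGTG), the NRF1 motif (GCGCATGC), the cyclic AMP response element (TGACGTCA), the YY1 motif and the TATA motif were each in at most 4 member windows. A match describes the letters of the window and not binding, and no test was made between these groups.

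In the 1 to 4 h window no member was called in either direction by limma. Across all genes 0.0611% were called lower (11 genes) and 0.0222% higher (4 genes). The median early difference of members was 0.17, against 0.02 for all genes, with a range from -0.30 for CWC22 to 0.61 for SF3A2. Of the 55 members 39 lay above their DMSO mean (70.9%), beside 54.7% of all genes. At an unadjusted p under 0.05 there were 6 members, all with higher values: SF3A2 (0.61), SNRPC and XAB2 (0.52 each), BUD31 (0.50), SNRPA (0.48) and SNRNP200 (0.41). SF3A2 had an unadjusted p of 0.0134 and an adjusted p of 0.576 in limma, and 1308 genes in all passed the unadjusted level.

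The controls themselves bear on the reading of small differences. The DMSO array at 20 h lay below that at 4 h in 49 of 55 members (89.1%), beside 40.1% of all genes. No member differed by more than 1 between these controls, beside 0.611% of all genes in 1 direction and 1.13% in the other. At matched times, with 1 array a side and no test, CPT differed from DMSO by more than 1 at 4 h only in CWC22 (-1.03). That is 1.82% of members, beside 1.7% of all genes more than 1 below DMSO and 1.45% more than 1 above. At 20 h 14 members lay more than 1 below DMSO (25.5%; all genes 11.2%) and 3 more than 1 above (5.45%; all genes 6.62%). The median matched difference at 20 h was -0.06 for members and 0.23 for all genes, nearer to 0 than the late medians of -0.25 and 0.34. By subset it was -0.51 for NTC and step II, -0.44 for helicases and -0.21 for Sm genes. It was 0.00 for U2, 0.14 for tri-snRNP and 0.22 for U1 genes.

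**Figure D2:**
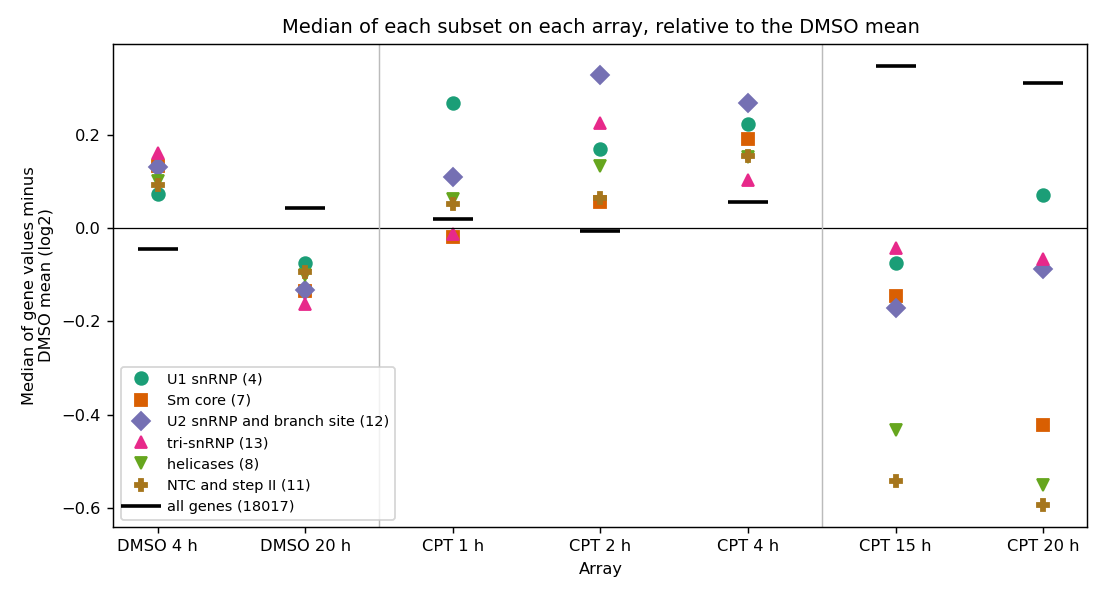
Median over the members of each of the 6 subsets, and over all genes, of the gene value minus the DMSO mean (log2), for each of the 7 arrays in order of treatment and time. The helicases and the NTC and step II factors lie lowest at 15 and 20 h, between -0.43 and -0.59, while the median of all genes is 0.35 and 0.31 there.

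Counts by subset are to be read beside 17.5% lower and 33.5% higher over all genes. Among genes with a 7-array mean above 4.80, late arrays included, the shares were 33.7% and 20.2%. Each subset is small, and differences from these shares were not tested. U1 snRNP proteins, which recognise the 5′ splice site, had no gene called lower in late CPT, and 1 of 4 rose (25%). SNRPC encodes the C protein of U1, which stabilises the pairing of U1 RNA with that site. Its values were 6.45 and 6.60 in DMSO, 6.99, 6.80 and 7.35 in early CPT and 7.41 and 7.22 in late CPT. All 5 CPT arrays lay above both controls. The late difference was 0.79 ± 0.23 (SE), a 1.74-fold rise (adjusted p = 0.0174, limma), and it was not called without the DMSO 4 h array (adjusted p = 0.0931) or the CPT 15 h array (0.0795). Nor was it called with dim probe sets kept (0.47, adjusted p = 0.164), with a stricter filter (0.53, 0.0634), with centred arrays (0.55, 0.089) or with letters B, F and T only (0.60, 0.0713). SNRNP70, the U1-70K protein that binds the first stem-loop of U1 RNA, was at 6.40 and 6.31 in DMSO, 6.30, 6.48 and 6.00 early and 6.31 and 6.59 late. Its groups overlapped and the late difference was 0.10 ± 0.23 (adjusted p = 0.719). SNRPA, the A protein of U1 (-0.10), and PRPF39, a U1-associated factor (-0.41), were not called. At an unadjusted p under 0.05 SNRPC was the only U1 gene to pass.

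The Sm proteins form the ring around each spliceosomal snRNA except U6. Of 7 measured Sm genes 3 fell (42.9%) and 4 were not called, with a median of -0.16. SNRPD1 read 10.24 and 9.91 in DMSO, 10.04, 10.13 and 10.01 in early CPT, and 8.11 and 7.73 in late CPT. Both late arrays lay below the other 5, which spanned a narrow range. The late difference was -2.16 ± 0.17, a 4.47-fold decrease (adjusted p = 2.74e-05, limma), and 18 of its 21 kept probe sets were lower by more than 1. SNRPG read 9.51 and 9.24 in DMSO, 9.18, 9.37 and 9.50 early, and 8.33 and 7.58 late. Its late difference was -1.41 ± 0.23 (adjusted p = 0.00127), with the lowest value at 20 h. With dim probe sets kept as well the difference turned to 0.90 (adjusted p = 0.00427), so its direction depends on which probe sets are kept. With means in place of medians it was -0.62 (adjusted p = 0.00948). SNRPF fell by 0.56 (adjusted p = 0.0363), and was not called without the DMSO 4 h array (0.203), the DMSO 20 h array (0.0566) or the CPT 20 h array (0.263).

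The remaining 4 genes of the ring were not called. SNRPD2, which pairs with SNRPD1, was at 8.36 and 8.97 in DMSO, 8.65, 8.42 and 8.80 early and 8.85 and 8.86 late. SNRPD3 was at 8.26 and 7.84 in DMSO, 8.47, 8.13 and 8.35 early and 7.90 and 7.88 late. Neither was called, with differences of 0.19 ± 0.21 and -0.16 ± 0.20 (adjusted p = 0.463 and 0.519), and the groups overlapped in both. With means in place of medians SNRPD2 was called higher (0.54, adjusted p = 0.00427, limma). It was not called with dim probe sets kept (0.58, adjusted p = 0.107). SNRPB and SNRPE had differences of -0.11 and -0.06 and were not called.

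**Figure D3:**
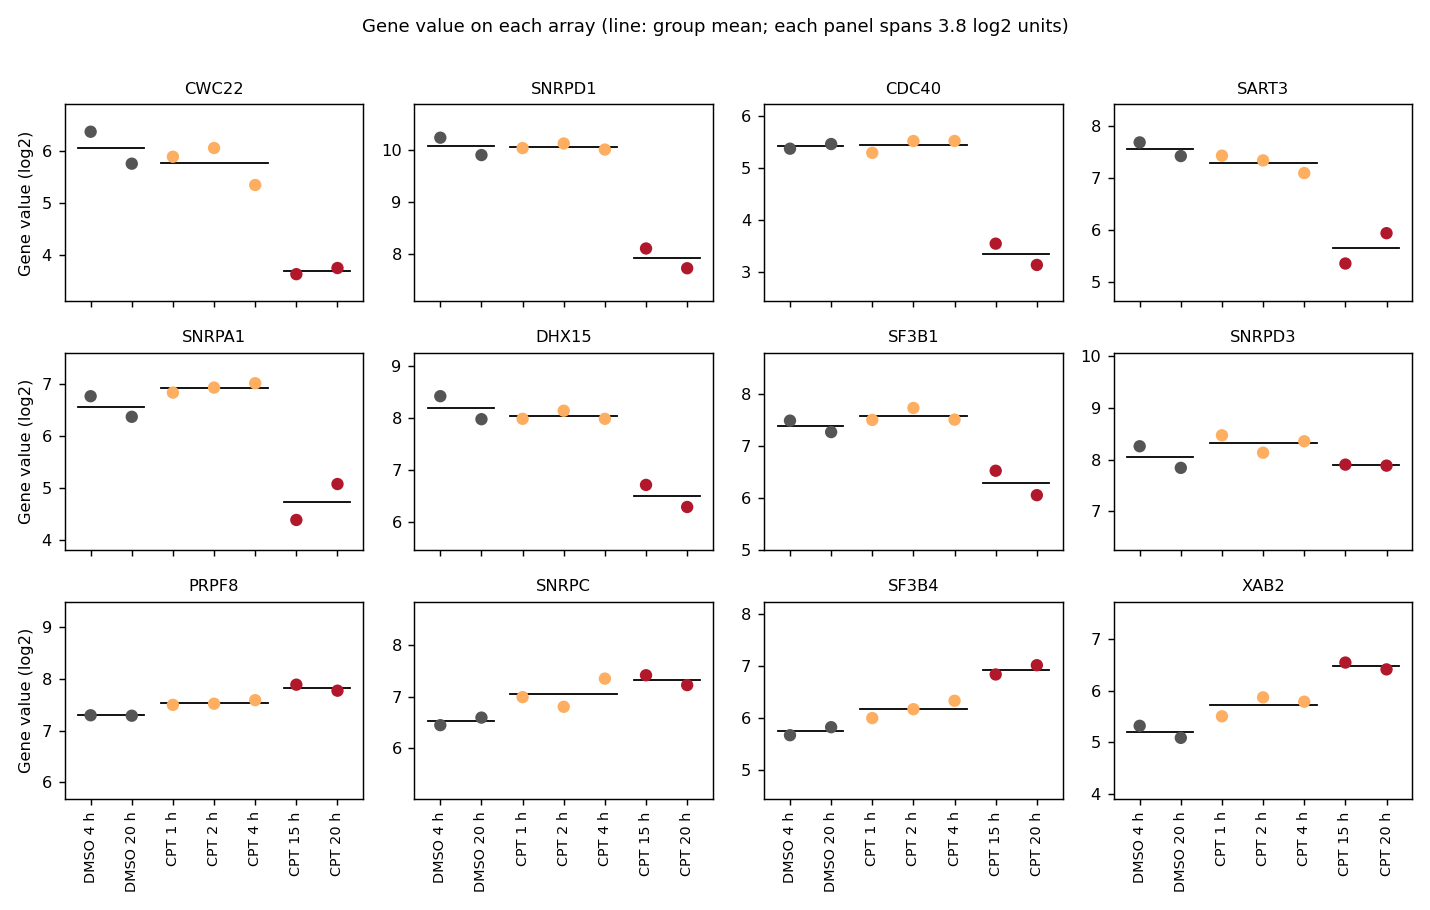
Gene values (log2) of chosen members in the 7 arrays, with DMSO at 4 and 20 h and CPT at 1, 2, 4, 15 and 20 h as single points, group means as lines and panels of equal span. SNRPD1 stays between 9.91 and 10.24 in the DMSO and early CPT arrays and is at 8.11 and 7.73 in the late ones, and XAB2 goes from 5.32 and 5.09 in DMSO to 6.54 and 6.41.

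Among the U2 snRNP and branch site proteins 3 of 12 fell (25%), 2 rose (16.7%) and 7 were not called. Both directions occurred within the SF3A/SF3B complexes that hold the branch site. SNRPA1, the U2 A′ protein, read 6.77 and 6.37 in DMSO, 6.84, 6.94 and 7.02 early, and 4.38 and 5.08 late. The late arrays lay far below the rest, with a difference of -1.84 ± 0.26, a 3.58-fold decrease (adjusted p = 0.00055, limma). SF3B1, the largest SF3B subunit, which clamps the branch site helix, read 7.49 and 7.27 in DMSO, 7.51, 7.74 and 7.51 early, and 6.53 and 6.06 late. It fell by 1.09 ± 0.22 (adjusted p = 0.00404), with no overlap. SF3B3, a large structural subunit of the same complex, fell by 0.80, and was not called without the DMSO 4 h array (adjusted p = 0.103), the CPT 15 h array (0.0531) or the CPT 20 h array (0.0532).

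SF3B4, the SF3B subunit that contacts RNA upstream of the branch site, moved the other way. It read 5.67 and 5.83 in DMSO, 6.00, 6.17 and 6.34 early, and 6.84 and 7.02 late. The late difference was 1.18 ± 0.21, a 2.27-fold rise (adjusted p = 0.002), and 19 of its 34 kept probe sets were higher by more than 1. SF3A2, a subunit of SF3A, read 5.59 and 5.51 in DMSO, 6.37, 6.24 and 5.87 early, and 6.60 and 6.71 late. It rose by 1.11 ± 0.22 (2.15-fold, adjusted p = 0.00377), and all 5 CPT arrays lay above both controls. U2AF2, which binds the polypyrimidine tract, was at 5.49 and 4.78 in DMSO, 5.42, 5.90 and 5.39 early and 5.74 and 5.59 late, with a difference of 0.53 ± 0.27 that was not called (adjusted p = 0.123), though it was with means (0.00827) or a stricter filter (0.0458). Without the DMSO 4 h array the U2AF2 difference was 0.88 and without the DMSO 20 h array 0.18, and neither was called. The remaining genes had late differences from -0.55 (SF3A3, adjusted p = 0.0531) to 0.37 (SF3B2), with SF3A1 at -0.30, SNRPB2, the U2 B′′ protein, at -0.06, SF1, the first branch site binder, at -0.32 and U2AF1, which reads the AG at the intron's end, at 0.10.

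Of 13 tri-snRNP genes 4 fell (30.8%), 1 rose (7.69%) and 8 were not called. SART3, which reassembles U4/U6 after splicing, read 7.69 and 7.42 in DMSO, 7.43, 7.34 and 7.09 early, and 5.35 and 5.94 late. It fell by 1.91 ± 0.25, a 3.76-fold decrease (adjusted p = 0.000306, limma), and 111 of its 131 kept probe sets were lower by more than 1. PRPF3, a U4/U6 protein, read 6.71 and 6.17 in DMSO, 6.38, 6.09 and 6.11 early, and 4.74 and 4.68 late. It fell by 1.73 ± 0.24 (adjusted p = 0.000424), with both late arrays below all others. SNRNP40, a U5 protein, fell by 1.46 (adjusted p = 0.00203), and PRPF38A, which joins with the tri-snRNP, fell by 0.89, a call that was lost without the DMSO 4 h array (adjusted p = 0.0601).

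PRPF8, the U5 scaffold around the catalytic centre, read 7.29 in both DMSO arrays, 7.50, 7.52 and 7.59 early, and 7.88 and 7.77 late. It rose by 0.54 ± 0.18 (1.45-fold, adjusted p = 0.0309), but the call was lost without any one of 5 of the 7 arrays (adjusted p = 0.0976 without DMSO 4 h, 0.0722 without DMSO 20 h, 0.0514 without CPT 2 h, 0.114 without CPT 15 h and 0.0635 without CPT 20 h). It was 0.30 with dim probe sets kept (adjusted p = 0.255) and 0.29 with centred arrays (0.235). Only 29 of its 308 kept probe sets were higher by more than 1, and 7 were lower by more than 1. Other tri-snRNP genes lay close to DMSO: EFTUD2, the U5 GTPase, differed by -0.13, PRPF6 by -0.10, PRPF4 by -0.06, TXNL4A by -0.02, PPIH, a U4/U6 cyclophilin, by -0.01 and USP39 by 0.22. PRPF31, a U4/U6 protein, and SART1, which bridges to U5, differed by 0.39 and 0.45 and were not called.

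Of the 8 helicases 3 fell (37.5%) and 5 were not called, with a median of -0.45. DHX15, which takes apart the spliceosome after the exons are joined, read 8.42 and 7.98 in DMSO, 7.99, 8.14 and 7.99 early, and 6.71 and 6.29 late. It fell by 1.70 ± 0.22, a 3.25-fold decrease (adjusted p = 0.00034, limma), with no overlap. With dim probe sets kept as well the difference was -0.80 and not called (adjusted p = 0.105). AQR, a helicase that binds the intron upstream of the branch site, read 5.16 and 4.97 in DMSO, 5.04, 4.69 and 4.86 early, and 3.81 and 3.58 late. It fell by 1.37 ± 0.19 (adjusted p = 0.000477), and DDX23, which exchanges U1 for U6 at the 5′ splice site, by 1.17. SNRNP200, the helicase that unwinds U4 from U6, was at 6.39 and 6.33 in DMSO, 6.68, 6.87 and 6.76 early and 6.74 and 6.71 late. All its CPT arrays were above both controls, but the late difference of 0.36 ± 0.20 was not called (adjusted p = 0.137). It was called in 2 of 15 alternative settings, such as means in place of medians (0.38, adjusted p = 0.0444, limma). DHX8, DDX46, DHX16 and DHX38 had differences of -0.48, -0.42, -0.33 and 0.35.

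The NTC and step II factors had the lowest subset median, -0.56, with 6 of 11 lower (54.5%), 1 higher (9.09%) and 4 not called. CWC22, which helps place the exon junction complex, read 6.37 and 5.76 in DMSO, 5.89, 6.06 and 5.34 early, and 3.62 and 3.74 late. It fell by 2.38 ± 0.28, a 5.20-fold decrease (adjusted p = 0.000177, limma), and 85 of its 93 kept probe sets were lower by more than 1. CDC40, a step II factor, read 5.37 and 5.46 in DMSO, 5.29, 5.52 and 5.52 early, and 3.54 and 3.13 late. It fell by 2.08 ± 0.20 (4.23-fold, adjusted p = 7.02e-05), and the 5 other arrays lay close together. PRPF18, another step II factor, fell by 1.79, with 22 of its 49 kept probe sets lower by more than 1 and 2 higher. Its DMSO values lay apart, at 6.06 and 5.17. SLU7, which acts at the same step, was at 0.48 and not called.

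Within the Prp19 complex and its partners calls went in both directions. CDC5L, a core subunit related to Myb proteins, fell by 1.74 (adjusted p = 0.000427), PLRG1 by 1.16 and BCAS2 by 0.56 (adjusted p = 0.0318). The BCAS2 call was lost without any one of the DMSO 4 h (adjusted p = 0.141), CPT 2 h (0.0513), CPT 15 h (0.0709) and CPT 20 h (0.0991) arrays. PRPF19, the ubiquitin ligase that gives the complex its name, was at 4.94 and 5.02 in DMSO, 5.14, 5.06 and 5.35 early and 5.23 and 5.53 late. Its late difference of 0.40 ± 0.20 was not called (adjusted p = 0.118; 0.0411 with dim probe sets kept), nor were CRNKL1 (-0.28) and BUD31 (-0.25). XAB2, an NTC-associated protein also known as a partner of the repair factor XPA, read 5.32 and 5.09 in DMSO, 5.50, 5.87 and 5.79 early, and 6.54 and 6.41 late. It rose by 1.27 ± 0.22 (2.41-fold, adjusted p = 0.00147), all 5 CPT arrays lay above the controls, and 74 of its 132 kept probe sets were higher by more than 1.

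The late and early CPT groups were also compared directly. The DMSO arrays enter this test through the shared estimate of the spread but not through the difference. Of 55 members 25 were lower late (45.5%), 2 were higher (3.64%) and 28 were not called, beside 18.3% lower and 36.3% higher over all genes. Shares among genes of like level were not computed for this comparison. The median difference was -0.43 for members and 0.33 for all genes. The genes higher late were XAB2 (0.75, adjusted p = 0.0112, limma) and SF3B4 (0.76, adjusted p = 0.0101). Each call rests on 1 late array: XAB2 was not called without the CPT 15 h array (adjusted p = 0.0614) and SF3B4 not without the CPT 20 h array (0.0614). Lower calls were made in 7 of 11 NTC and step II factors, 5 of 8 helicases, 5 of 12 U2 and branch site proteins, 4 of 13 tri-snRNP proteins, 3 of 7 Sm proteins and 1 of 4 U1 proteins. Quantile re-normalization gave 23 lower and 6 higher. Early and late CPT share the DMSO arrays in the comparisons above, so their differences are given side by side only: SNRPC differed by 0.52 early and 0.79 late, SF3A2 by 0.61 and 1.11, and XAB2 by 0.52 and 1.27.

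Single probe sets were then set against their own gene, as the probe set's log2 value minus the gene value. In late CPT 91 of 5766 member probe sets were relatively lower (1.58%) and 147 relatively higher (2.55%), beside 2.17% and 3.26% of all 1030440 probe sets tested. In early CPT no member probe set was called by limma, with 180 at an unadjusted p under 0.05; over all genes 0.000485% were called lower and 0.00116% higher. The counts of late calls rest on single arrays: without the DMSO 4 h array they were 5 lower and 11 higher, and without the CPT 20 h array 15 and 11. Without the DMSO 20 h array they were 26 and 80, and without the CPT 15 h array 78 and 79.

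Most relatively higher probe sets kept an own value within 1 of DMSO. Of the 147, 81 did so and 66 were more than 1 above it. In genes called lower lay 119 of the 147, of which 77 were within 1 and 42 more than 1 above. Of the 91 relatively lower ones, 85 had an own value more than 1 below DMSO. The largest shares were in SNRNP40, with 7 lower and 8 higher of 49, and PRPF3, with 5 lower and 19 higher of 103. SNRPA1 had 2 and 13 of 68, BCAS2 6 and 2 of 44, and SNRPG 4 higher of 22. By class letter, whose meaning the sources used here do not explain, 12.5% of member probe sets of letter Z were relatively higher (8.07% over all genes), 9.58% of letter Y (10.1%), 6.96% of letter E (5.53%) and 3.28% of letter B (3.87%). For letters C, D and X relatively lower probe sets outnumbered higher ones, with 2.04%, 3.18% and 2.54% lower (3.23%, 3.41% and 3.85% over all genes) against 0.952%, 0.794% and 0.475% higher (2.89%, 2.96% and 2.28%). Letters F and T had 2.20% and 1.10% higher (2.25% and 1.07%).

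**Figure D4:**
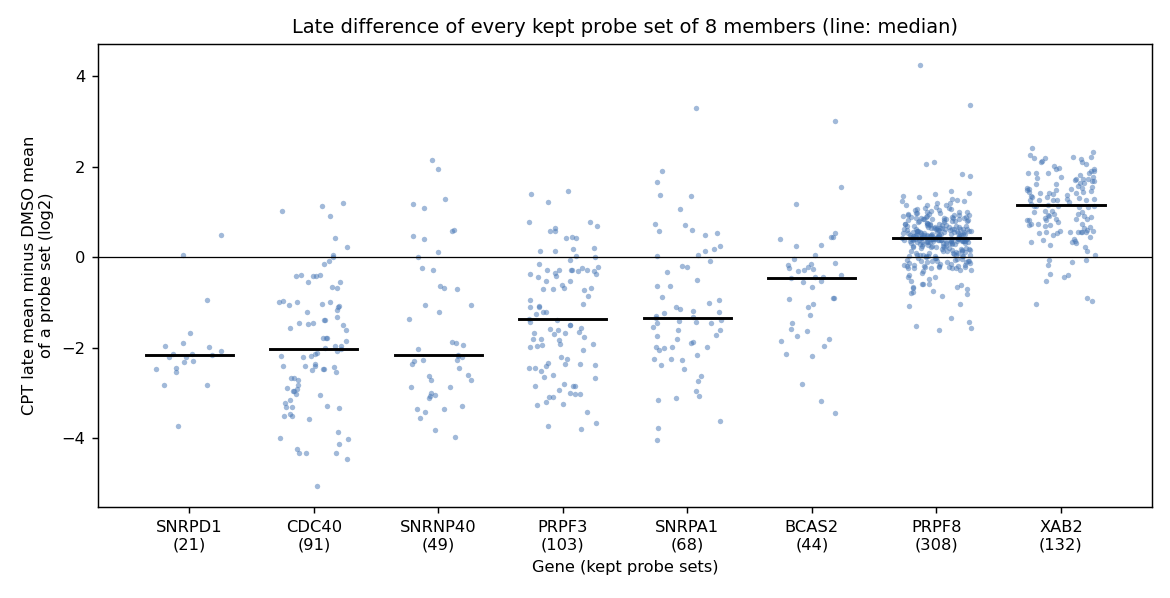
Late CPT mean minus DMSO mean (log2) of every kept probe set of 8 members, 1 point per probe set, with the median as a black line and the number of kept probe sets under each gene. Points of SNRPD1 cluster near -2 with 18 of 21 lower by more than 1. Those of CDC40, SNRNP40, PRPF3 and SNRPA1 spread over several log2 units, mostly below 0. In these genes 68 of 91, 33 of 49, 59 of 103 and 42 of 68 were lower by more than 1. Higher by more than 1 were 3, 5, 3 and 6, and for XAB2 74 of 132.

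Among the probe sets with the largest relative change several were high in each CPT array, though none was called in the early window. A letter Y probe set of SNRPF had own values of 4.16 and 4.64 in DMSO, 6.93, 6.91 and 7.46 early, and 8.05 and 7.69 late. It rose relative to its gene by 4.03 ± 0.51 late (adjusted p = 0.00294, limma). A letter B probe set of SNRPG was at 3.29 and 4.19 in DMSO, 5.87, 5.64 and 5.98 early, and 5.98 and 6.56 late, with a relative late difference of 3.95 ± 0.61 (adjusted p = 0.00683). A letter E probe set of PRPF8 was at 2.95 and 2.39 in DMSO, 4.06, 5.18 and 4.83 early, and 6.61 and 7.22 late (relative late difference 3.71 ± 0.56, adjusted p = 0.00617). In all 3 the 5 CPT arrays lay above both controls. A letter E probe set of PLRG1 was at 1.40 and 1.72 in DMSO, 1.89, 1.93 and 3.12 early, and 4.30 and 6.69 late. It passed the filter only through its late values, so its test is not given. Of the 147 relatively higher probe sets 19, this one included, were kept only through the late arrays, which favours such calls. The PRPF8 probe set also lay at or under the 2.95 used to keep probe sets in DMSO, where values are least certain.

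Genes that work with the core machinery are given by the same counts, to be read beside 17.5% lower and 33.5% higher over all genes. Of 38 other spliceosome factors 15 fell (39.5%) and 3 rose (7.89%), from -2.76 for WBP4, a protein of the spliceosome before activation, to 0.86 for SF3B6, the small SF3B subunit at the branch site. Of 15 snRNP assembly and import genes 6 fell (40%) and 9 were not called, with GEMIN6 of the SMN complex at -2.36 (adjusted p = 0.000277, limma) and PRMT5, which methylates Sm proteins, at 0.08 (adjusted p = 0.731). Of 8 LSM genes, most of whose products form the ring on U6 snRNA while LSM1 belongs to a related ring in mRNA decay, 2 fell and 2 rose (25% each), from LSM6 at -2.38 to LSM7 at 1.55 (adjusted p = 0.00234). Of 11 genes of the minor spliceosome, which removes a rare class of introns, 3 rose (27.3%, under the share over all genes) and 8 were not called, with a median of 0.38. They ranged from ZCRB1 at -0.46 (adjusted p = 0.0699) to RBM48 at 1.48 (adjusted p = 0.00745).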

How the data were processed

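Total RNA of 7 HCT116 samples was amplified, labelled with biotin and hybridised to 1 splice array each, per the labels' protocols. The authors deposited log2 values per probe set. The submitters' processing notes name RMA, Partek 6.08 and R 2.11.1 without role or order. The array's genome build is not given in the sources used here, so no gene coordinates are printed, and promoter coordinates are RefSeq's. Members and gene lists were chosen with earlier results of these data known.

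Probe sets with a mean above 2.95 (the median of all probe sets) were kept, and genes with at least 3 were valued by their median. Probe sets were set against that value in genes with at least 5. Both were fitted with limma 3.58.1 (lmFit and eBayes with trend, R 4.3.3, the data.table package, version 1.17.8), estimating a mean for each of the 3 groups, which leaves 4 residual degrees of freedom. P-values were adjusted by Benjamini-Hochberg over all features and called at 0.05. The procedure was tested on simulated data. Figures used Python 3.11.15 and matplotlib 3.10.9. The number of arrays limits the precision. Alternatives were no filter, a stricter filter, means, quantile re-normalization, centring, no trend, time as a block, each array left out, and, added after seeing the data, probe sets of letters B, F and T only. Full values are given for the 2 largest decreases and increases per subset with called differences and no overlap, and for 10 genes fixed by name. The values of SNRPF, SNRNP40, PRPF18, CDC5L and BCAS2 beyond this rule were picked after their values were seen. The same holds for the per-subset examples that depend on 1 array and the probe sets described in full.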

Additional observations from a re-analysis of the deposited data

Results flagged for a closer look

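The difference between the late and the early CPT window passed the test in 27 members (limma, late minus early on the log2 scale, n = 2 against 3). It was -2.20 for SNRPA1, -2.15 for SNRPD1, -2.11 for CDC40, -2.08 for CWC22, -1.89 for SNRNP40, -1.84 for PRPF18, -1.68 for CDC5L and -1.65 for SART3. It was -1.54 for DHX15, -1.48 for PRPF3, -1.39 for SNRPG, -1.29 for SF3B1, -1.18 for DDX23, -1.17 for AQR and -1.01 for SF3B3. Smaller decreases were -0.97 for PLRG1, -0.93 for PRPF38A, -0.90 for BCAS2, -0.75 for BUD31, -0.72 for SF3A3, -0.64 for SNRPF, -0.61 for DDX46, -0.58 for SNRPA, -0.50 for DHX16 and -0.47 for SF3A1. XAB2 and SF3B4 were higher late, by 0.75 and 0.76.

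Several of the smaller ones rest on single arrays. SF3A1 was not called without any one of the 5 CPT arrays, DHX16 without any one except that at 15 h, SNRPA without any one except that at 2 h, and BUD31 without that at 2, 15 or 20 h. SNRPF, SF3A3, DDX46 and SF3B4 were not called without the 20 h CPT array, nor XAB2 without the 15 h array. BUD31, SNRPA, SF3A1, SF3A3, DDX46 and DHX16 were not called against DMSO in either window.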

How the results depend on the processing

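No paired analysis was possible because the labels carry no replicate numbers; time was used as a block instead, with the 4 arrays at 4 and 20 h. That fit pools both times with 1 residual degree of freedom and called 0 members lower and 0 higher (limma; 3 lower at an unadjusted p under 0.05), and 2 genes in all. Shares of all genes called higher depend on the setting as well. With means in place of medians 48.8% were called higher in late CPT against DMSO, and 33.5% with medians. Late against early these shares were 50.6% and 36.3%. Shares over all genes under the other settings are not given here. Against 19 lower and 5 higher members in late CPT, higher calls were 10 with means in place of medians, 9 with quantile re-normalization and 3 with centring. Leaving out 1 array gave 15 to 20 lower and 3 to 5 higher. Late against early, 25 lower and 2 higher became 4 higher with means, 6 with quantile re-normalization and 0 with centring (limma; 2 at an unadjusted p under 0.05), and leaving out 1 array gave 18 to 25 lower and 1 to 2 higher. Relatively lower probe sets, 91, were 137 with means, and leaving out 1 array gave 5 to 78 lower and 11 to 124 higher. Early CPT gave 0 called members when any 1 array was left out. SNRPG reversed to 0.90 without the filter. For the 21 genes given in full, 278 of 315 alternative values kept their side of the threshold, 29 lost the call, 7 gained it and 1 reversed. A change of sign in a gene called in neither setting counts among the 278. Such genes include SNRNP70 (-0.18 to 0.24) and SNRPD3 (-0.45 to 0.07). The causes were not tested. Low signal limits dim probe sets most.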
